A study of Mus musculus with 6 samples.

Results

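The genes described are 10 genes of pericytes, Kcnj8, Abcc9, Rgs5, Rgs4, Notch3, Pdgfrb, Cspg4, Mcam, Higd1b and Cox4i2, of the 23557 genes listed for each tumor. Of the 10, 9 passed the filter on low values that precedes the fit (a mean of at least 0.5 counts per 1000000), and Higd1b did not. They were chosen by name as pericyte genes that include both subunits of the Kir6.1 potassium channel, and Kcnj8 was put first because it was already known to be lower in H89 tumors of this series. Differences between H89 and NaCl tumors are therefore described for these 10 genes by their values with no p-value, and the number of them past a threshold is given only as a description, beside the share of all genes past it. The tumors grew from CT26, a colorectal carcinoma line of the same mouse strain, of which 500000 cells were injected under the skin of young female Balb/c mice. Once tumors had formed, 3 mice received NaCl alone and 3 received H89 at 10 mg/kg in NaCl, into the peritoneum and 2 times a week, and tumors were taken on day 14 after injection (NaCl tumors and H89 tumors below). H89 inhibits protein kinase A and several other kinases. Each library is the total RNA of 1 whole tumor, so that CT26 cells, stroma, vessels and immune cells are read together. All 6 tumors grew from the same cell line in the same strain.

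Pericytes sit on the outer wall of capillaries and share a basement membrane with the endothelium, whose PDGF-B recruits them through the receptor encoded by Pdgfrb. In many tissues they are recognised by an ATP-sensitive potassium channel in which Kir6.1, the pore encoded by Kcnj8, pairs with the sulfonylurea receptor SUR2, encoded by Abcc9. Opening of this channel draws potassium out of the cell and relaxes the capillary wall, and protein kinase A is known to raise its activity. In tumors, pericytes are often sparse and loosely attached.

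Kcnj8 (ENSMUSG00000030247, chromosome 6 from 142564837 to 142571614, minus strand, GRCm38) and Abcc9 (ENSMUSG00000030249, chromosome 6 from 142587862 to 142702315, minus strand) are neighbours. In the direction of transcription, 16248 bases separate the end of Abcc9 from the start of Kcnj8. Rgs5 (chromosome 1 from 169655501 to 169695813) and Rgs4 (chromosome 1 from 169741477 to 169747642) form a second neighbouring pair, 45664 bases apart and on opposite strands. The other genes lie apart, Notch3 on chromosome 17 from 32120820 to 32166852, Cspg4 and Mcam on chromosome 9 from 56865033 to 56899870 and from 44134469 to 44142727, Higd1b on chromosome 11 and Cox4i2 on chromosome 2. The promoters of the channel pair and of Mcam are printed from RefSeq on GRCm38.p6, from 250 bases before to 50 bases after the transcription start, because H89 acts on a kinase whose target CREB binds TGACGTCA or, less tightly, TGACG alone, and because Notch signals through a factor that binds TGGGAA. Capitals mark TGACG and TGGGAA on either strand, so that a match on the other strand reads CGTCA or TTCCCA, and each TGACGTCA holds an overlapping TGACG on both strands.
Kcnj8, chr6:142571565-142571864, minus strand: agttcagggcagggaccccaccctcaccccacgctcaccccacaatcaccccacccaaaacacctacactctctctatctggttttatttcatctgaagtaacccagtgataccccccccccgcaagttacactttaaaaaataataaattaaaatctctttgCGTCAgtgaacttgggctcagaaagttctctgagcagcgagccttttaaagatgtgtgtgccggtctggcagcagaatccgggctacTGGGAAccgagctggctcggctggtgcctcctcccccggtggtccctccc
Abcc9, chr6:142702225-142702524, minus strand: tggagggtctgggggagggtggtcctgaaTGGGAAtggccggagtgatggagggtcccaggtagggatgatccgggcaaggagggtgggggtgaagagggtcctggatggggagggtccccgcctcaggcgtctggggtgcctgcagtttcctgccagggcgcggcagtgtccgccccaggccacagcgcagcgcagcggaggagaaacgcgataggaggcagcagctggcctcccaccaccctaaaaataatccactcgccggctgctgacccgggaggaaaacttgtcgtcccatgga
Mcam, chr9:44134408-44134707, plus strand: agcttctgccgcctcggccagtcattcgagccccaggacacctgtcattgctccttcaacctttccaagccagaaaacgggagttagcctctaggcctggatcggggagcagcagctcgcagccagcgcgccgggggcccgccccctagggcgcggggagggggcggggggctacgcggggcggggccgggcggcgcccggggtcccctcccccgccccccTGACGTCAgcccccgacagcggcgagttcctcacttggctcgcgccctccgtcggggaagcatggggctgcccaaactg
The Kcnj8 window held 1 TGACG, on the other strand 87 bases before the start, and 1 TGGGAA at the start itself. The Abcc9 window held 1 TGGGAA, 221 bases before the start. Mcam had the TGACGTCA, 29 bases before its start. RefSeq promoters were matched for 7 of the 10 genes, and TGACGTCA was in 1 of the 7, TGACG in 4 and TGGGAA in 2. Of the 32841 mouse promoters of the same length, 1.79% held TGACGTCA, 20.8% TGACG and 25.6% TGGGAA on either strand. These matches describe letters in a window only.

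The libraries held 27067349 to 31958793 estimated counts. Values below are counts per 1000000 (CPM), scaled by edgeR's TMM library sizes, unless another scale is named. The 10 pericyte genes summed to 161 to 237 CPM in NaCl tumors and 152 to 204 CPM in H89 tumors. Markers of 10 other cell types were read from fixed lists. The 20 endothelial genes summed to 289 to 416 CPM in NaCl tumors and 269 to 349 CPM in H89 tumors, and the 10 macrophage genes to 2153 to 3438 and 2599 to 3155 CPM. Of the 8 epithelial genes looked for in CT26 carcinoma cells, Epcam, Cdx2 and Vil1 reached 1.18 CPM at most, while Krt18 lay between 7.76 and 23.6 CPM. H89 tumor 1 stood apart in some muscle and fat genes. Its Acta1, skeletal muscle actin, was 12.3 CPM against at most 0.576 CPM in NaCl tumors, and its Cfd, adipsin of fat cells, 7.46 CPM against at most 0.448 CPM. Fewer cells of a type and less RNA per cell cannot be told apart in such bulk samples.

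The order of the 10 genes in untreated tumors was read per length of transcript, which the choice of genes did not use. For this purpose the estimated counts were divided by the length of all exons of a gene and scaled to 1000000 per tumor (length-scaled level). Mcam, the adhesion molecule CD146 of mural and endothelial cells, was at 51.0 ± 15.0 and Pdgfrb at 48.3 ± 4.04 (SD, n = 3 NaCl tumors), and their ranges overlapped. Rgs5, a regulator of G protein signalling and a common marker of tumor pericytes, was next at 14.5 ± 5.52, below the lowest Pdgfrb value in every NaCl tumor. Kcnj8 was the fourth at 8.18 ± 4.18, followed by Cox4i2, the oxygen-regulated isoform of a cytochrome oxidase subunit, at 5.95 ± 2.45 (SD, n = 3 each). Abcc9 had 2.91 ± 1.72, Rgs4 2.14 ± 1.16, Notch3 1.67 ± 0.462, Higd1b 1.57 ± 1.07 and Cspg4 0.742 ± 0.200 (SD, n = 3 each). From Rgs5 downward the range of each gene over the NaCl tumors overlapped that of the next. Within each NaCl tumor, however, Rgs5 exceeded Kcnj8, Cox4i2 exceeded Abcc9, Abcc9 exceeded Rgs4 and Higd1b exceeded Cspg4, while the order of Mcam and Pdgfrb, of Kcnj8 and Cox4i2, of Rgs4 and Notch3 and of Notch3 and Higd1b varied between tumors. Higd1b exceeded Cspg4 narrowly in NaCl tumor 1, at 0.621 against 0.555, on 5 counts of Higd1b. That order depends on the length used. With the longest transcript as the length, the means of Notch3 and Higd1b exchanged places. On this length-scaled level, Kcnj8 exceeded Abcc9 in each NaCl tumor, with 4.87, 6.80 and 12.9 against 1.63, 2.23 and 4.86. In H89 tumors 1 to 3 the length-scaled level of Kcnj8 was 0.690, 4.28 and 2.38, beside 0.691, 3.31 and 1.87 for Abcc9, so that the gap between them was narrower and was absent in H89 tumor 1.

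Kcnj8 was lower in every H89 tumor than in any NaCl tumor. It was measured at 4.25, 5.60 and 10.9 CPM in NaCl tumors 1 to 3 and 0.535, 3.04 and 1.73 in H89 tumors 1 to 3. H89 tumor 1 was lowest, with 15 counts, and NaCl tumor 3 highest, with 297, and the groups came closest between H89 tumor 2 and NaCl tumor 1. The fitted log2 fold change of H89 against NaCl was -1.95 (standard error, SE, 0.57), -1.46 when NaCl tumor 3 was dropped and -1.53 when H89 tumor 1 was. These values chose the gene and support nothing further.

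Abcc9, the partner subunit, overlapped between the groups. It was measured at 4.64, 6.04 and 13.5 CPM in NaCl tumors and 1.75, 7.73 and 4.47 in H89 tumors 1 to 3. NaCl tumor 3 was again highest and H89 tumor 1 again lowest, but H89 tumor 2 was above NaCl tumors 1 and 2. The log2 fold change was -0.79 (SE 0.55) and depended on single tumors, with -0.20 without NaCl tumor 3, -0.40 without H89 tumor 1 and -1.36 without H89 tumor 2. Exons of Abcc9 overlap 5330439B14Rik on the opposite strand, and its estimated counts lay up to 0.391 from a whole number, while those of Kcnj8 were whole in each tumor.

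Set against each other in the same tumor, the 2 channel subunits gave a ratio that varied less than either gene. Per 100 estimated counts of Abcc9, there were 91.2, 92.7 and 80.5 counts of Kcnj8 in NaCl tumors 1 to 3 and 30.4, 39.4 and 38.7 in H89 tumors 1 to 3. The ratio spanned 1.15-fold among NaCl and 1.30-fold among H89 tumors, where Kcnj8 CPM alone spanned 2.56-fold and 5.68-fold. As a share of the counts of both genes, Kcnj8 made up 46.8% ± 1.93 in NaCl tumors and 26.5% ± 2.69 in H89 tumors (SD, n = 3 each). The 95% exact binomial intervals of the single tumors ran from 40.8% at the lowest to 54.2% at the highest in NaCl tumors and from 13.8% to 35.7% in H89 tumors, and those of the groups did not overlap. The widest interval was that of H89 tumor 1, with 64 counts of both genes, and these intervals cover counting error only. The difference in log2(CPM + 0.5) between Kcnj8 and Abcc9 was -0.17 ± 0.11 in NaCl tumors and -1.16 ± 0.05 in H89 tumors (SD, n = 3 each). Because this ratio holds the value that chose Kcnj8, it is a description.

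**Figure D1:**
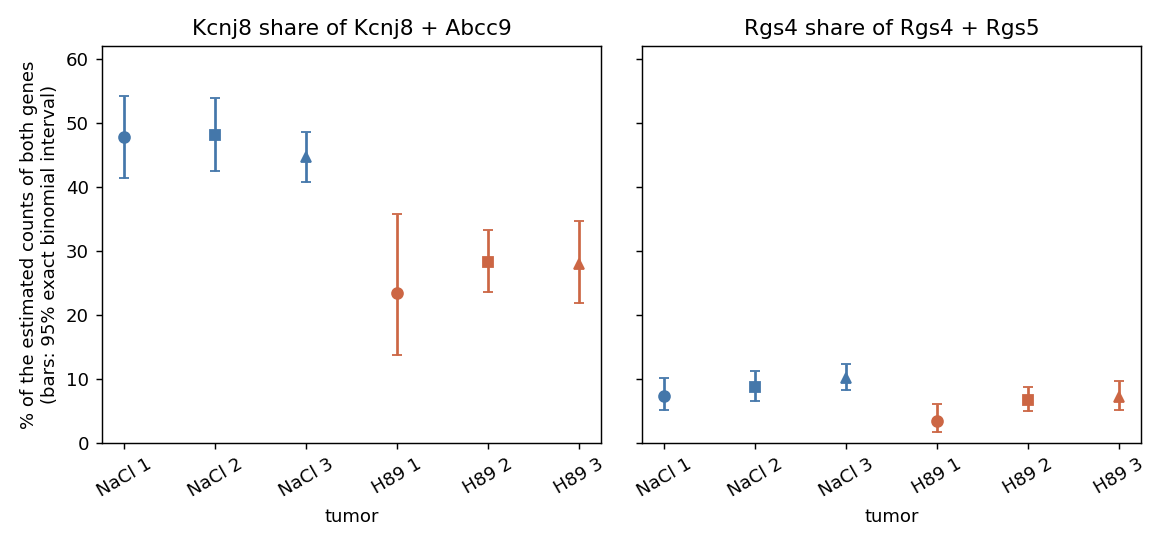
Share of Kcnj8 in the summed estimated counts of Kcnj8 and Abcc9 (left) and of Rgs4 in those of Rgs4 and Rgs5 (right), in percent on the vertical axis, for each of 3 NaCl (blue) and 3 H89 (orange) tumors, with 95% exact binomial intervals as bars. The Kcnj8 share lay between 44.6% and 48.1% in NaCl tumors and between 23.4% and 28.2% in H89 tumors.

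Kcnj8 was also compared with the other 9 genes together. Relative to their mean log2(CPM + 0.5), Kcnj8 stood at -0.27, -0.16 and 0.17 in NaCl tumors 1 to 3 and at -2.06, -1.01 and -1.40 in H89 tumors 1 to 3. The means were -0.09 ± 0.23 and -1.49 ± 0.53 (SD, n = 3 each), a difference of -1.40 on the log2 scale. Taken against each of the 9 genes alone, Kcnj8 was lower in all H89 than in all NaCl tumors for 8 of 9, with differences from -0.95 against Rgs4 to -2.02 against Pdgfrb. The exception was Cox4i2, where Kcnj8 in H89 tumor 2 (1.53 above Cox4i2 on the log2 scale) exceeded that in NaCl tumor 1 (1.32). Against the mean of the 20 endothelial genes, the Kcnj8 value was -0.67 ± 0.39 in NaCl tumors and -2.23 ± 0.71 in H89 tumors (SD, n = 3 each), again without overlap. All of these comparisons hold the same Kcnj8 values, which chose the gene, so they are descriptions and not separate results. The share of all genes tested without overlap on such relative scales was not computed.

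The regulators of G protein signalling Rgs5 and Rgs4 also were lowest in H89 tumor 1 and highest in NaCl tumor 3. Rgs5 was at 14.5, 20.3 and 30.6 CPM in NaCl tumors and 10.9, 20.8 and 14.7 CPM in H89 tumors 1 to 3. Its highest value was in NaCl tumor 3 and its lowest in H89 tumor 1, but H89 tumor 2 lay above NaCl tumor 2, and the log2 fold change was -0.50 (SE 0.31), or -0.17 without NaCl tumor 3 and -0.30 without H89 tumor 1. Rgs4, its neighbour, gave 3.61 to 11.4 counts per 100 counts of Rgs5 and stood at 1.15, 1.94 and 3.47 CPM in NaCl tumors and 0.392, 1.49 and 1.13 CPM in H89 tumors. H89 tumor 2 exceeded NaCl tumor 1, and the log2 fold change of Rgs4 was -1.11 (SE 0.53), -0.61 without NaCl tumor 3. As a share of the counts of both genes, Rgs4 made up 8.76% ± 1.42 in NaCl tumors and 5.77% ± 1.99 in H89 tumors (SD, n = 3 each). Each H89 tumor had a lower share than any NaCl tumor, but the interval of NaCl tumor 1, from 5.09% to 10.2%, overlapped those of all 3 H89 tumors.

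The receptors of the group did not share one direction. Pdgfrb was at 89.3, 79.0 and 95.5 CPM in NaCl tumors and 102, 114 and 96.9 CPM in H89 tumors 1 to 3. It was the only one of the 10 genes that was higher in every H89 tumor, by a narrow gap, with a log2 fold change of 0.24 (SE 0.10). Fibroblasts carry this receptor too, and the 12 genes of the fibroblast list had a median log2 fold change of 0.32, 11 of them above 0, where 49.4% of all genes tested were below 0. Relative to the mean of that list, Pdgfrb was at 1.48, 1.40 and 1.58 in NaCl tumors and 1.30, 1.46 and 1.47 in H89 tumors on the log2 scale, and the groups overlapped. The part of fibroblast content in the Pdgfrb values was not tested. Notch3, the Notch receptor of mural cells, was at 3.49, 4.10 and 5.81 CPM in NaCl tumors and 3.10, 5.47 and 3.44 CPM in H89 tumors. Its groups overlapped, and its log2 fold change of -0.16 (SE 0.29) turned to 0.08 without NaCl tumor 3.

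Cspg4, the proteoglycan NG2 of the pericyte surface, had 2.27, 2.76 and 3.77 CPM in NaCl tumors and 1.86, 3.28 and 2.62 CPM in H89 tumors. Its log2 fold change of -0.18 (SE 0.29) turned to 0.04 without NaCl tumor 3 and to 0.01 without H89 tumor 1. Mcam was at 39.3, 59.7 and 70.4 CPM in NaCl tumors and 30.9, 47.6 and 36.8 CPM in H89 tumors, a log2 fold change of -0.55 (SE 0.23) that lay between -0.76 and -0.36 when 1 tumor was left out. Only NaCl tumor 1 lay within the range of the H89 tumors. Relative to the 20 endothelial genes, Mcam was at 2.33 ± 0.09 in NaCl tumors and 2.02 ± 0.13 in H89 tumors on the log2 scale (SD, n = 3 each), without overlap. How many of all genes tested lie apart on this relative scale was not computed. Exons of Notch3 and Mcam overlap Gm17276 and Gm10687 on the opposite strand.

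Higd1b and Cox4i2, whose proteins sit in mitochondria, had the lowest mean CPM in NaCl tumors. Higd1b, a hypoxia-inducible domain protein found in pericytes, had 5, 10 and 21 counts in NaCl tumors and 2, 14 and 6 counts in H89 tumors 1 to 3, and did not pass the filter of 0.5 CPM on average. Its groups overlapped, and what difference could be detected at this depth was not tested. An edgeR fit without the filter gave Higd1b a log2 fold change of -0.93 (SE 0.68). Cox4i2 was at 1.40, 1.01 and 2.27 CPM in NaCl tumors and 0.928, 0.730 and 1.79 CPM in H89 tumors. Its lowest value was in H89 tumor 2, which was the highest H89 tumor for the other genes, and its log2 fold change was -0.43 (SE 0.43), or -0.07 without NaCl tumor 3.

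**Figure D2:**
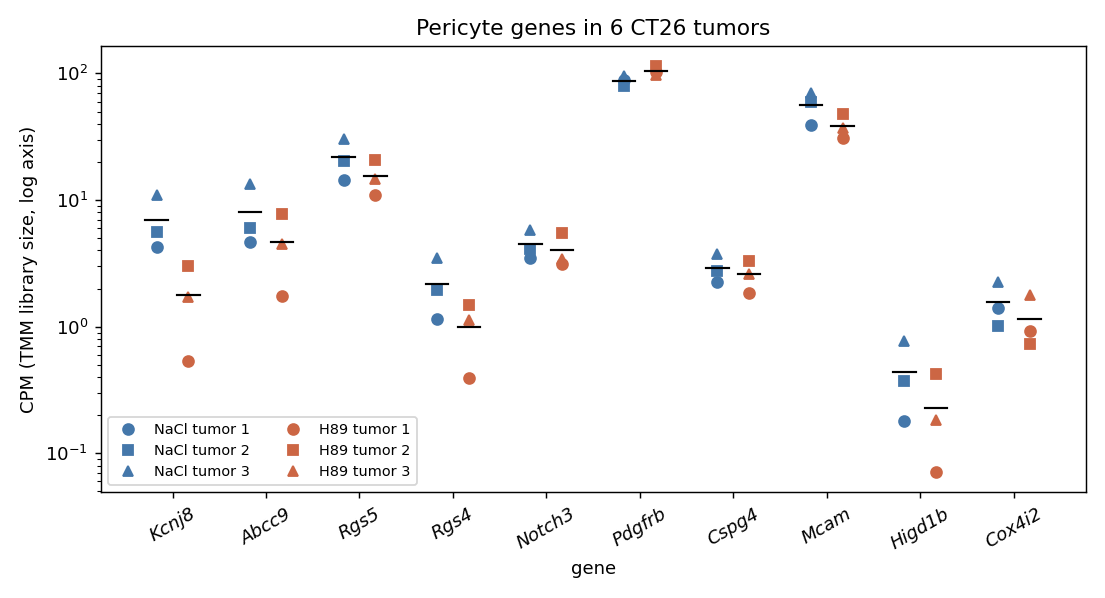
CPM of the 10 genes (log axis) in 3 NaCl (blue) and 3 H89 (orange) tumors, with circles, squares and triangles for tumors 1, 2 and 3 and group means as black lines. NaCl tumor 3 was the highest NaCl tumor for each gene, and the groups were apart for Kcnj8, which was lower, and Pdgfrb, which was higher, in H89 tumors.

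Among the 10 genes, 8 were lowest in H89 tumor 1 and 9 were highest in NaCl tumor 3. Over the 13118 genes tested, 18.1% were lowest in H89 tumor 1 and 18.1% were highest in NaCl tumor 3. Among H89 tumors alone, tumor 2 was the highest for 9 of the 10 genes. The spread within a group was wider for these genes than for most, with a median SD of log2(CPM + 0.5) of 0.45 in NaCl tumors and 0.42 in H89 tumors, against 0.13 and 0.15 over the genes tested. Pdgfrb, which had the highest mean CPM of the 10 genes in both groups, was the exception, with 0.14 and 0.12. The genes tested were not matched to the 10 for abundance, and the part of counting error in the wider spread was not tested.

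In edgeR's quasi-likelihood test with Benjamini-Hochberg adjustment over all genes tested, 0 of the 9 genes that passed the filter had an adjusted p under 0.05, where 1.59% of all genes tested had one, 0.724% lower and 0.861% higher. At an unadjusted p under 0.05 there were 3 of 9, Kcnj8 and Mcam lower and Pdgfrb higher, where 25.0% of all genes tested passed, and 11.9% passed as lower. DESeq2's Wald test put 1 of the 9, Kcnj8, under an adjusted p of 0.05, where it put 10.4% of all genes there. Limma voom put 0 of the 9 there, against 1.68% of all genes, and limma on quantile-normalized values 0, against 0.61%. A log2 fold change below 0 was found for 8 of the 9 genes and for 49.4% of all genes tested. All 3 H89 values lay below all 3 NaCl values for 1 of the 10 genes and above them for 1, against 15.5% and 15.2% of the genes tested, or 30.7% in either direction. The median log2 fold change of the other members that passed the filter, 8 of 9, was -0.46, and -0.12 without NaCl tumor 3, against 0.004 over all genes tested. Since Kcnj8 was placed in the group by this same comparison, nothing is read from these counts.

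**Figure D3:**
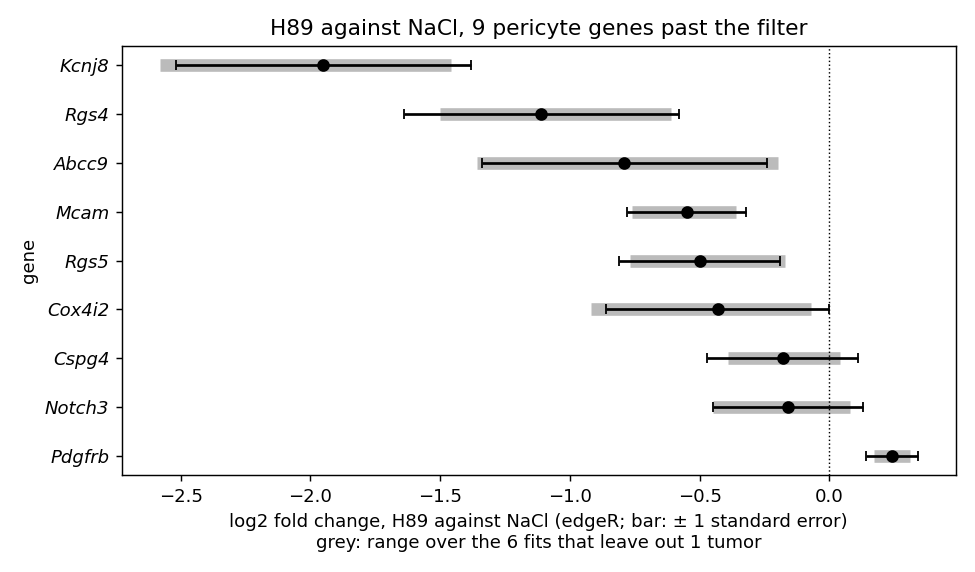
Log2 fold change of H89 against NaCl (horizontal axis, edgeR) for the 9 genes past the filter, with 1 standard error as the black bar and the range over the 6 fits that leave out 1 tumor in grey. Kcnj8 stayed between -2.58 and -1.46, while the grey ranges of Notch3 and Cspg4 crossed 0.

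Relatives of the channel were scarce or did not pass the test. Kcnj11, the Kir6.2 pore, had 0 counts in each of the 6 tumors. Abcc8, the SUR1 receptor, had 0 counts in NaCl tumors and 0.143 CPM at most in H89 tumors. Of 13 other inward rectifier genes, 5 passed the filter and 0 of them had an edgeR adjusted p under 0.05 in either direction, or an unadjusted p under 0.05. Counts at an unadjusted p, here and for the lists that follow, stand against 25.0% of all genes tested. Kcnj2, the Kir2.1 pore of endothelium and muscle, was at 7.48 ± 1.61 CPM in NaCl tumors and 9.23 ± 3.04 CPM in H89 tumors (SD, n = 3 each), and the fitted log2 fold change was 0.30 (SE 0.26, edgeR adjusted p = 0.496). Kcnj15 was below 1 CPM in each tumor, with a log2 fold change of -0.29 (edgeR adjusted p = 0.571).

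The partners of the receptors did not pass the test either. None of the 5 PDGF ligand and alpha receptor genes had an edgeR adjusted p under 0.05, and 1 had an unadjusted p under 0.05. That one was Pdgfa, which acts chiefly on the alpha receptor, at 79.3, 57.3 and 75.1 CPM in NaCl tumors and 50.7, 48.5 and 47.8 CPM in H89 tumors, a log2 fold change of -0.53 (SE 0.12, edgeR adjusted p = 0.0729). Its groups did not overlap. Pdgfra, the alpha receptor and the next by p, had a log2 fold change of 0.32 (SE 0.16, edgeR adjusted p = 0.258). Pdgfb, the endothelial ligand of the receptor encoded by Pdgfrb, lay between 19.7 and 28.6 CPM in NaCl tumors and between 15.4 and 23.2 CPM in H89 tumors, and was named for its role after its values were seen. Of 14 Notch ligands, receptors and targets tested, 0 had an adjusted p under 0.05 and 2 an unadjusted p under 0.05, both lower. They were Hes1, a Notch target, with a log2 fold change of -0.44 (edgeR adjusted p = 0.183), and Dll4, the endothelial ligand, with -0.63 (edgeR adjusted p = 0.193). Of 14 other RGS genes, 0 passed with adjustment and 3 without, all higher. The smallest p were those of Rgs11, with a log2 fold change of 0.96 (edgeR adjusted p = 0.115) and Rgs14, with 0.60 (edgeR adjusted p = 0.171). Angpt2, the angiopoietin that loosens pericyte contact, had a log2 fold change of -0.29 (edgeR adjusted p = 0.332).

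The means of 2 other lists of the vessel wall varied less between tumors than that of the 10 genes did. The mean log2(CPM + 0.5) of 18 further pericyte genes lay between 2.74 and 2.85 in NaCl tumors and between 2.68 and 2.90 in H89 tumors, and their median log2 fold change was -0.06. The gene of this list with the smallest p was Mfge8, a secreted glycoprotein also made by macrophages, at 234 ± 12.2 CPM in NaCl tumors and 172 ± 8.96 CPM in H89 tumors (SD, n = 3 each). The fitted log2 fold change of Mfge8 was -0.44 (SE 0.08, edgeR adjusted p = 0.0504). Anpep, the next, had 0.54 (edgeR adjusted p = 0.281). The 10 tested genes of vascular smooth muscle had a mean of 2.57 to 2.60 in NaCl tumors and 2.47 to 2.70 in H89 tumors and their median log2 fold change was -0.04, with Mylk, myosin light chain kinase, at 0.18 (edgeR adjusted p = 0.203) and Mustn1 at -0.27 (edgeR adjusted p = 0.258). Both lists had 0 genes with an edgeR adjusted p under 0.05, and 1 and 0 with an unadjusted p under 0.05. Several defining genes were scarce in these tumors, among them Vtn, at 0.392 CPM or less, and the contractile genes Cnn1, at 0.18 CPM or less, and Myh11, at 1.03 CPM or less.

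The endothelial list shared part of the order of tumors seen for the 10 genes. Its mean log2(CPM + 0.5) was 3.09, 3.55 and 3.73 in NaCl tumors and 3.09, 3.54 and 3.08 in H89 tumors 1 to 3, and the mean of the 9 tested pericyte genes was 2.83, 3.08 and 3.69 and 2.20, 3.05 and 2.75. In both, NaCl tumor 3 was the highest of all and H89 tumor 2 the highest of its group, but the endothelial mean was the same in NaCl tumor 1 and H89 tumor 1 (3.09). Taken relative to the endothelial mean, the mean of the 9 pericyte genes other than Kcnj8 was -0.58 ± 0.19 in NaCl tumors and -0.74 ± 0.23 in H89 tumors (SD, n = 3 each), and the groups overlapped. Rgs4, whose CPM overlapped between the groups, was lower in every H89 tumor on this relative scale, at -2.12 ± 0.33 against -2.73 ± 0.47 (SD, n = 3 each), as were Kcnj8 and Mcam, and the Mcam CPM overlapped too. For every other gene of the 10 the groups overlapped on this scale. The share of all genes tested without overlap on it was not computed, so nothing is read from these genes. Of the 20 endothelial genes, 0 had an edgeR adjusted p under 0.05 and 4 an unadjusted p under 0.05, all lower, where 11.9% of all genes tested passed as lower and 25.0% in either direction. The median log2 fold change of the list was -0.27. The lowest p was that of Cldn5, the claudin of endothelial tight junctions, with 3.28, 5.07 and 6.11 CPM in NaCl tumors and 2.18, 3.16 and 2.53 CPM in H89 tumors, a log2 fold change of -0.87 (SE 0.27, edgeR adjusted p = 0.110). Esam, the next, had -0.53 (edgeR adjusted p = 0.171). The part of vessel content in the values of the 10 genes was not tested.

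**Figure D4:**
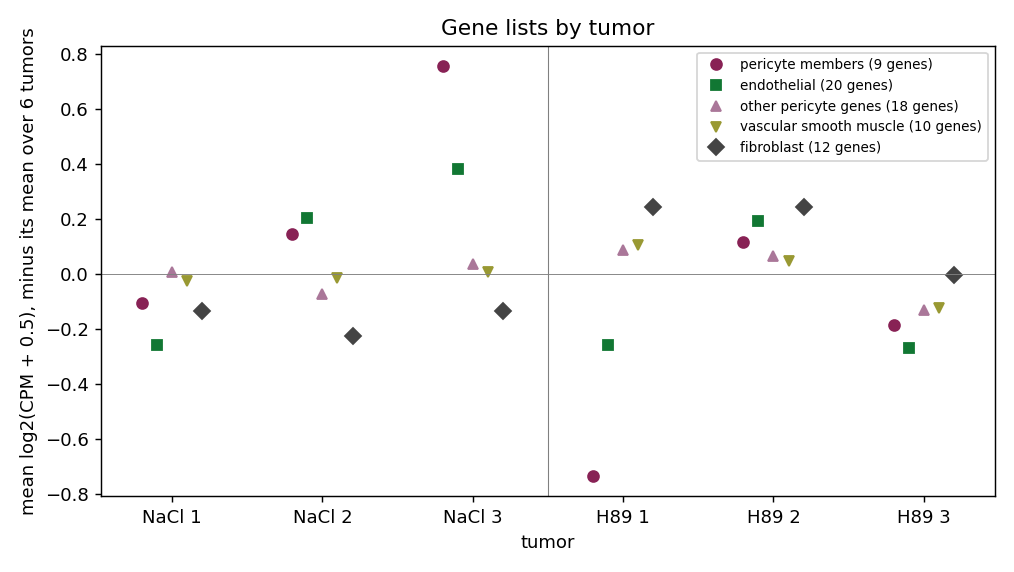
Mean log2(CPM + 0.5) of the tested genes of 5 lists in each tumor, minus the mean of the list over the 6 tumors (vertical axis), with a symbol and colour for each list. The pericyte and endothelial symbols were both highest in NaCl tumor 3, and the lists of further pericyte and smooth muscle genes lay nearer to 0 than both in all 6 tumors.

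Among the other cell types, 2 of the 143 genes tested over the 17 further lists, or 1.40%, had an edgeR adjusted p under 0.05, near the 1.59% of all genes. They were Cox6a2, a cytochrome oxidase subunit of muscle, which fell by 1.87 on the log2 scale (edgeR adjusted p = 0.0407), and Cdsn, corneodesmosin of the epidermis, which fell by 2.15 (edgeR adjusted p = 0.0288). Limma voom called 3 and DESeq2 13 genes of these lists, and leaving out any 1 tumor left 0 or 1 called by edgeR. The keratinocyte markers Krt1, Krt15 and Ivl had 0 counts in each tumor and Krt5 reached 0.107 CPM at most. Other genes of that list were present, with Fat2 at 1.80 to 9.51 CPM in NaCl tumors and 1.25 to 1.52 CPM in H89 tumors. Krt10 (1.90 to 3.36 and 2.89 to 3.56 CPM) and Sfn (2.56 to 3.82 and 2.77 to 5.78 CPM) overlapped between the groups. The list with Cdsn summed to 51.8 to 85.7 CPM in NaCl tumors and 19.9 to 25.7 CPM in H89 tumors. Of the 14 skeletal muscle genes, which matter here because muscle also carries Abcc9, all but Cox6a2 were rare in NaCl tumors, at 1.60 CPM or less. Their sum lay between 11.5 and 12.5 CPM in NaCl tumors and between 5.69 and 30.8 CPM in H89 tumors, and their mean log2(CPM + 0.5) was 1.75 in H89 tumor 1, which had the lowest Abcc9, against at most 0.58 in the other 5 tumors. Their part in the Abcc9 values was not tested. Krt18, a keratin of the carcinoma list, had a log2 fold change of -1.04 without overlap of the groups (edgeR adjusted p = 0.0653). The other 4 of the 5 genes tested of that list had a log2 fold change above 0, and the median of the list was 0.05. Krt19, the next by p, had 2.56 (SE 1.15, edgeR adjusted p = 0.213). It was at 2.53 CPM in H89 tumor 1 and at 0.396 CPM or less in each other tumor. Postn and Col3a1 had the smallest p of the fibroblast list, with log2 fold changes of 1.09 and 0.49 (edgeR adjusted p = 0.111 and 0.115). Those of the macrophage list were Fcgr1 and Adgre1, with 0.57 and 0.45 (edgeR adjusted p = 0.171 and 0.418). For the Schwann cell and neural list they were Pmp22 and Tubb3, with -0.31 and -0.30 (edgeR adjusted p = 0.149 and 0.271). For the adipocyte list they were Cfd and Retn, with 3.90 and 0.78 (edgeR adjusted p = 0.182 and 0.398). All 11 genes tested of T and NK cells had a log2 fold change above 0, with Klrk1 at 1.62 (edgeR adjusted p = 0.0813) and Cd3g at 1.64 (edgeR adjusted p = 0.101), where 49.4% of all genes tested were below 0. Of the 11, 0 passed with adjustment and 6 without, where 25.0% of all genes passed without.

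The 5 genes closest to Kcnj8 over the 6 tumors, picked from 13118 genes tested, held none of the 10. Abcc9 was nearly as close as the last of the 5. Closeness was the root mean square difference of log2(CPM + 0.5) after centring each gene on its mean, and it carries no test. For Kcnj8 it includes the fall in H89 tumors that chose the gene. The 5 closest of the genes tested were Plet1 (0.319), Csn3 (0.414), Sh2d6 (0.458), Akr1c18 (0.463) and Inhbb (0.498). Plet1, a surface protein of placental and epithelial progenitors, was at 12.7, 17.2 and 42.7 CPM in NaCl tumors and 3.64, 12.1 and 11.6 CPM in H89 tumors. Abcc9 was at 0.50 and Rgs4 at 0.513, and Pdgfrb, at 1.17, was the farthest from Kcnj8 of the other 8 pericyte genes past the filter. The mean profile of the other 9 genes lay closest to Emcn (0.079), Adgrl4 (0.091), Arhgef28 (0.093), Flt4 (0.095) and Cnrip1 (0.10). Of these, Emcn, endomucin, Adgrl4 and Flt4 are genes of endothelium. Emcn was at 7.59, 9.55 and 12.8 CPM in NaCl tumors and 5.81, 10.5 and 7.45 CPM in H89 tumors, with NaCl tumor 3 highest and H89 tumor 1 lowest, as for Rgs5. Among the 9 pericyte genes past the filter, Notch3 and Cspg4 (0.10) and Rgs5 and Mcam (0.13) were the closest pairs.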

How the data were processed

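Bulk RNA of 3 NaCl and 3 H89 CT26 tumors was sequenced by the authors on the BGISEQ-500 platform. The deposited table, although called TPM, holds estimated counts per gene, since its tumors sum to 27067349 to 31958793 rather than 1000000. Of the values above 0, 58.6% to 61.4% are whole within 0.01. The submitters' processing notes name GRCm38, kallisto and DESeq2. Filters, annotation and strand are not given in the sources used here. Estimated counts were rounded, and 13118 genes with a mean of at least 0.5 CPM were fitted by edgeR 4.0.16 under R 4.3.3 (TMM, glmQLFit, glmQLFTest, treatment only, Benjamini-Hochberg adjustment). Standard errors were derived as |log2 fold change| divided by the root of F. The fit was tested on simulated data. Alternatives used DESeq2 1.42.0 and limma 3.58.1. Lengths, positions and overlaps came from GENCODE M21 by symbol (23007 of 23557 matched). The columns of 221 genes were described one by one, and the others were read alike.

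The members and lists were chosen with earlier results of these data known, and the lists were written from general knowledge. Genes named beside the members are, per list, those with an adjusted p under 0.05 or else the 2 with the smallest p, the Kir6 relatives, and the 5 closest profiles, and any other gene is named for its role. Nothing says that replicate numbers were paired, and mice were separate animals. With 3 tumors per group, the edgeR p-values set the group difference against the spread between these tumors, which edgeR moderates over all genes tested.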

Additional observations from a re-analysis of the deposited data

How the results depend on the processing

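With the replicate number as a block, 0 genes had an edgeR adjusted p under 0.05 and 0 genes of the other lists did, and the log2 fold change of Kcnj8 was -2.09. Deviations of same-numbered tumors from their group means had correlations of 0.163, 0.0609 and -0.0249 over the genes tested. Such values over all genes cannot settle whether same-numbered tumors shared a cage or batch, which was not tested. With the block, the SE was 0.45 against 0.57 for Kcnj8 and 0.14 against 0.23 for Mcam. Among the 9 pericyte genes fitted, it rose only for Pdgfrb, to 0.11 from 0.10. DESeq2 called 1392 genes, 13 genes of the other lists and 1 pericyte gene (Kcnj8), and limma with quantile normalization called 80 genes. Without a filter 4 genes of the other lists were called, and with at least 5 CPM 1 was, and Kcnj8 itself did not pass that filter. Leaving out 1 tumor gave 0 to 12 called genes and 0 to 1 of the other lists. Between 1 and 5 pericyte genes then lay below NaCl in every H89 tumor. They were 3 when NaCl tumor 1, 2 when H89 tumor 3 and 5 when H89 tumor 2 was dropped. Groups overlap less easily with fewer tumors, and the share of all genes below NaCl after such an omission was not computed. Nothing is therefore read from these counts. The difference of Kcnj8 relative to the other genes was -1.40, and -0.99 with Abcc9 or -2.02 with Pdgfrb as the reference. The cause of these changes was not tested, beyond fewer tumors or genes. Under the scalings and fits tried, including those that left out 1 tumor, the log2 fold change of Kcnj8 lay between -2.58 and -1.46. References to the endothelial list and to the 4 most abundant members were chosen after seeing the data, and gave -1.56 and -1.39. With 15 to 297 counts per tumor, counting error weighs on Kcnj8, most in H89 tumor 1.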
